A study of Mus musculus with 51 samples.

Results

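The comparison set CD103+CD69+ against CD103-CD69+ CD8+ T cells sorted from AT3-OVA mammary tumors of mice under immune checkpoint blockade, on day 40. It used 6 of the 51 libraries of the series, 3 in each group, chosen by the sample labels alone and matched to the columns of the table through the library codes. The AT3-OVA line is a murine breast carcinoma that expresses ovalbumin as a model antigen. All groups below share that tumor, the CD8+ sort and the treatment label Immune Checkpoint Blockade; the labels name no antibody, strain, age or dose, and do not say whether a replicate is 1 animal or a pool. The same table holds 2 libraries of CD103-CD69- cells from the same treated tumors, which entered the fit and are given beside them. Untreated tumors of weeks 1, 2, 4 and 6 lie in a separately normalized table and are set beside the treated values only at the end. The transcripts were read by QuantSeq, a 3' tag method.

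CD103, the integrin alpha chain encoded by Itgae, pairs with the beta7 chain and binds E-cadherin on epithelial cells. CD69 holds T cells in tissue by drawing the egress receptor S1PR1 off the surface. Cells that carry both are the usual surface definition of tissue-resident memory T cells, and TGF-beta is known to induce CD103 on them. CD69 is also an early activation marker, so CD103-CD69+ cells in a tumor can include recently stimulated cells. TOX is the transcription factor that maintains the exhausted state of chronically stimulated CD8+ T cells, and granzyme A is a serine protease of cytotoxic granules.

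Values are the authors' normalized values, read as log2, so that 1 unit is taken as a doubling. They ran from -23.81 to 20.89 in CD103+CD69+ replicate 1, a wide span, and the normalization is unknown. The log base is therefore uncertain, and differences may not be true fold changes. Depth per library is unknown. Differences are CD103+CD69+ minus CD103-CD69+. The call rule was a limma adjusted p under 0.05, with Benjamini-Hochberg adjustment over all 13458 genes. The deposited table has lost part of its spread: its 8 libraries vary in 4 independent directions where 7 are possible, and in 2 around the group means where 5 are possible. The test therefore used 2 residual degrees of freedom in place of 5. The count with the ordinary 5 is given beside it as the ordinary count; its p-values take the spread as fully observed. Within the CD103+CD69+ group the libraries' deviations from the group mean correlated across genes at 0.991 between replicates 1 and 2 and at -0.999 between replicates 1 and 3, so they lay almost on 1 line and the 3 libraries hold less than 3 independent values. The median SD over genes was 0.086 in CD103+CD69+, 0.135 in CD103-CD69+ and 0.0423 in the 2 CD103-CD69- libraries. A plain 3 against 3 exact permutation test cannot go below a two-sided p of 0.10 (smallest value 0.1).

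Itgae followed the sort, and Cd69 did so in part. Itgae had values of 14.50, 14.48 and 14.50 in CD103+CD69+, of 12.09, 12.54 and 11.81 in CD103-CD69+ and of 9.96 and 10.11 in CD103-CD69-. The CD103+CD69+ libraries were the highest and nearly equal, and the 2 groups sorted as CD103- did not overlap each other either. The difference of 2.35 (SE 0.21) had a limma adjusted p of 0.0849 and an ordinary one of 0.000659. Itgb7, the beta partner of CD103, stood at 12.29, 12.39 and 12.65 against 11.69, 11.12 and 11.55, with the CD103-CD69- libraries at 12.40 and 12.20. The 2 CD69+ groups did not overlap for Itgb7 (difference 0.99, SE 0.21, adjusted p = 0.249), but 1 CD103-CD69- library lay inside the range of CD103+CD69+ and the other lay between the CD69+ groups. Cd69 was at 12.16, 12.19 and 12.28 in CD103+CD69+ and at 11.98, 11.86 and 11.89 in CD103-CD69+, a difference of 0.30 (SE 0.07, adjusted p = 0.258). The CD103-CD69- libraries, at 11.96 and 11.92, lay below the CD103+CD69+ ones but within the range of the CD103-CD69+ ones. The Cd69 transcript thus did not separate the 2 CD103- groups, which were sorted apart on the CD69 protein. The Itgae gene is at chr11:73090583-73147446 (plus strand) and the Cd69 gene at chr6:129267325-129275436 (minus strand) in GRCm38, the same build as mm10.

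Of 13458 genes, 5 were called (0.0372%): Ifitm1 rose in CD103+CD69+ and Atp2b2, Trav10d, Tmprss6 and Tox fell. Those called make up 0.00743% of genes in the higher and 0.0297% in the lower direction. At an unadjusted p below 0.05 limma gave 1733 genes. The ordinary count was 3250 (24.1%), with 1384 higher (10.3%) and 1866 lower (13.9%). The 3 libraries of 1 group lay wholly apart from the 3 of the other for 5173 genes (38.4%), with 2278 higher (16.9%) and 2895 lower (21.5%) in CD103+CD69+. Counts of genes apart, here and in the lists below, were not corrected for the lost directions. With less spread within groups, libraries lie apart more easily. Differences were mostly small: 290 of the genes apart were higher by at least 1 and 411 lower by at least 1. Genes with low values made up most of these, since 249 of the 290 and 294 of the 411 lay below the 25th percentile of mean values. The median over all genes was -0.02.

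Ifitm1, an interferon-inducible membrane protein of the fragilis family, had values of 16.15, 16.13 and 16.08 in CD103+CD69+, of 15.13, 15.20 and 15.17 in CD103-CD69+ and of 13.94 and 13.97 in CD103-CD69-. The groups formed 3 separate steps, and the first step was a difference of 0.95 (SE 0.06, adjusted p = 0.0432). Its neighbours in the same gene family, chosen after their values were seen, stood the same way round: Ifitm2 differed by 0.82 (adjusted p = 0.109) and Ifitm3 by 0.76 (adjusted p = 0.158), with groups apart for both.

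Tox had values of 12.73, 12.76 and 12.92 in CD103+CD69+ and of 14.58, 14.60 and 14.31 in CD103-CD69+. The groups were apart by more than 1 log2 unit at their nearest libraries. The difference was -1.69 (SE 0.11, adjusted p = 0.0432). The CD103-CD69- libraries, both at 14.21, lay close below CD103-CD69+, so CD103+CD69+ was the group that stood apart. The Tox gene is at chr4:6686353-6991557 (minus strand).

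Atp2b2 encodes a plasma-membrane calcium pump, PMCA2, that expels calcium from the cytosol. Its values were 3.03, 3.09 and 3.34 in CD103+CD69+, 8.67, 8.69 and 8.24 in CD103-CD69+ and 7.38 and 7.37 in CD103-CD69-. This was the lowest difference of all genes tested, -5.38 (SE 0.24, adjusted p = 0.0291). Tmprss6 (chr15:78439667-78468634, minus strand), a membrane serine protease known from iron regulation in the liver, stood at 5.84, 5.89 and 6.03 against 9.11, 8.73 and 9.09, with 9.62 and 9.49 in CD103-CD69-. Its difference was -3.06 (SE 0.17, adjusted p = 0.0432), and again CD103+CD69+ alone was low. Trav10d is a variable segment of the T-cell receptor alpha locus, at chr14:52810934-52811496 (plus strand). Its values of 7.21, 7.31 and 7.55 in CD103+CD69+ lay below 11.20, 10.63 and 11.10 in CD103-CD69+ and 11.22 and 11.02 in CD103-CD69-, a difference of -3.62 (SE 0.21, adjusted p = 0.0432). The mouse alpha locus holds near-identical copies of its variable segments, among which the counting could divide reads, so the value of Trav10d is uncertain. Whether 3' tags report the use of a variable segment was also not tested. The related Trav10 differed by -0.77 with overlapping groups (adjusted p = 0.473).

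The calls depended on which libraries were kept. Of the 8 fits that leave out 1 library, Atp2b2 was called in 7, Ifitm1, Trav10d and Tmprss6 in 6 each and Tox in 5. Without CD103-CD69+ replicate 3, limma called 0 genes, with 2629 at an unadjusted p below 0.05. Without CD103+CD69+ replicate 2 it called Atp2b2 only, without CD103+CD69+ replicate 3 it called 31 genes, and without CD103-CD69+ replicate 1 it called 12. Tox also missed the threshold without CD103-CD69+ replicate 2 (adjusted p = 0.0900). Ifitm1 missed it under quantile normalization (adjusted p = 0.0569). The differences themselves moved little: over the fits that leave out 1 library, Tox ran from -1.79 to -1.64, Ifitm1 from 0.93 to 0.97 and Atp2b2 from -5.53 to -5.30. With median rescaling the calls were 3 higher and 5 lower in place of 1 and 4.

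**Figure D1:**
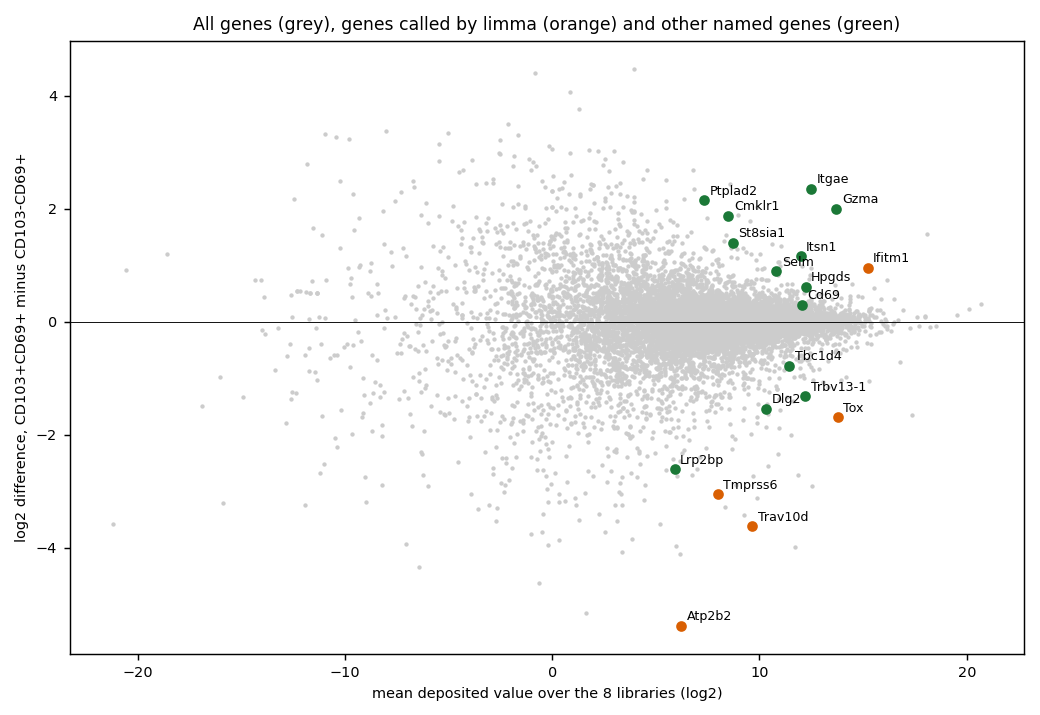
Difference between CD103+CD69+ and CD103-CD69+ (y axis, log2) against the mean deposited value over the 8 treated libraries (x axis, log2) for 13458 genes, with the 5 called genes in orange and other named genes in green. The scatter widens towards low values, and Tox, Gzma, Itgae and Ifitm1 lie outside the band of genes with similar mean values.

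The genes nearest to a call, taken by the smallest unadjusted p in each direction, gave values as follows. Gzma was at 15.65, 15.61 and 15.55 in CD103+CD69+, at 13.52, 13.88 and 13.42 in CD103-CD69+ and at 10.96 and 11.08 in CD103-CD69-. Its 3 groups formed separate steps, and the first was 2.00 (SE 0.14, adjusted p = 0.0579, ordinary 0.0003). Gzma was called in 2 of 8 fits that leave out 1 library. Itsn1, an endocytic scaffold protein, differed by 1.16 (adjusted p = 0.0579), and Selm, which encodes selenoprotein M of the endoplasmic reticulum, by 0.90 (adjusted p = 0.0806). Cmklr1, the chemerin receptor, stood at 9.83, 9.91 and 10.13 against 8.27, 7.88 and 8.10 (difference 1.87, adjusted p = 0.0806). Ptplad2, a dehydratase of fatty acid elongation, differed by 2.15, Hpgds, a prostaglandin D synthase, by 0.62, and St8sia1, the sialyltransferase that makes ganglioside GD3, by 1.40, each at an adjusted p of 0.0842. Cmklr1 and Hpgds are known from macrophages as well as T cells; the macrophage markers of these libraries are given below.

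On the lower side, Trbv13-1, a variable segment of the T-cell receptor beta locus, stood at 11.68, 11.73 and 11.88 against 13.20, 12.99 and 13.06, with 11.63 and 11.56 in CD103-CD69-. Here CD103-CD69+ was the group apart, with a difference of -1.32 (SE 0.10, adjusted p = 0.0579). As for Trav10d, the value of this segment is uncertain. Tbc1d4, a Rab GTPase-activating protein that controls glucose transporter traffic, differed by -0.78, Dlg2, a membrane-associated scaffold, by -1.54, and Lrp2bp, which binds the receptor megalin, by -2.61, each at an adjusted p of 0.0806. The groups were apart for these genes, which the rule that named them required.

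Promoters are shown for Gzma, the granzyme among the fixed markers, and for Ifitm1 and Atp2b2, the called genes of each direction with an entry. They are the windows around the transcription start that RefSeq gives (GRCm38.p6). Of the genes named by call or by smallest p and the 4 fixed markers, 12 had a promoter entry; Itgae, Cd69, Tox, Tmprss6, Trav10d and Trbv13-1 are named only. Capitals mark matches, on either strand, to the RUNX core TGTGGT or the KLF core CACCC, both families of transcription factors with known roles in T-cell residency or egress; no capital run overlaps another. Gzma is at chr13:113100932-113101231 on the minus strand, Ifitm1 at chr7:140967826-140968125 on the plus strand, and Atp2b2, the first of 3 listed starts, at chr6:114042031-114042330 on the minus strand.
Gzma: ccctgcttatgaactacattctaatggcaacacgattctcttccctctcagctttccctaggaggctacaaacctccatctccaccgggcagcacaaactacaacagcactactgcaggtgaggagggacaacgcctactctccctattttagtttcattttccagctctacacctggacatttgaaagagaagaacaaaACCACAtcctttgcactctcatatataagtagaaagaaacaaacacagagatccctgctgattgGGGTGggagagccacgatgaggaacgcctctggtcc
Ifitm1: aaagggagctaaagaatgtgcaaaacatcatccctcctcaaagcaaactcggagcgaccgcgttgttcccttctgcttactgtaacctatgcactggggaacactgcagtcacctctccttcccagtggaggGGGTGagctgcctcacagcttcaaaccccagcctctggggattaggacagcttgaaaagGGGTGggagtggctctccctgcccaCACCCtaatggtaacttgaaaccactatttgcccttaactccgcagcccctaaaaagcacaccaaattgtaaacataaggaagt
Atp2b2: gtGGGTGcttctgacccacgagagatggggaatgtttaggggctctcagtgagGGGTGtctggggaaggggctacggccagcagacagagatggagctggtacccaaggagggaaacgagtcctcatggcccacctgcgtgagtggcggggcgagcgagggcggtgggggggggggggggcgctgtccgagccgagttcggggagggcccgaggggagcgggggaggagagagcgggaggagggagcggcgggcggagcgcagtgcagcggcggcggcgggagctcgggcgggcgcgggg
The Gzma window held a RUNX match 50 bases before the start (-50) and a KLF match 14 bases after it. The Ifitm1 window held 3 KLF matches, at -118, -59 and -34. Over the 12 promoters, 3 held the RUNX letters, which 16.9% of 27025 RefSeq promoters hold, and 6 held the KLF letters, which 56.7% hold. The AP-1 letters TGANTCA (7.93% of all promoters) and the SMAD letters GTCTAGAC (0.211%) were in 0 of the 12 windows. These are letter matches within these short windows and were not tested as sites.

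Exhaustion and checkpoint genes were lower on balance in CD103+CD69+. Of 28 measured, Tox fell and 0 rose, and the ordinary count was 12 lower and 1 higher. The groups were apart for 17 lower (60.7%, against 21.5% of all genes) and 2 higher (7.14%, against 16.9%), and the list median was -0.32 against -0.02 over all genes. The members given next, like those of the later lists that limma did not call, were in part chosen after their values were seen. Tox2, a relative of Tox, was at 2.19, 2.16 and 2.18 against 4.80, 5.25 and 4.53 (difference -2.68, adjusted p = 0.11). Tigit, an inhibitory receptor, was at 12.58, 12.59 and 12.69 against 13.71, 13.90 and 13.45 (difference -1.07, adjusted p = 0.118). Lag3, an inhibitory receptor for MHC class II, was at 13.54, 13.57 and 13.76 against 14.73, 14.90 and 14.31 (difference -1.02, adjusted p = 0.210). For these 3 genes no CD103+CD69+ library reached the lowest CD103-CD69+ library. Differences of the same sign were seen for Havcr2, which encodes TIM-3 (-0.58), Cd38 (-0.81), Rgs16 (-1.04) and Tnfrsf9, which encodes the costimulatory receptor 4-1BB (-0.80), all with groups apart.

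Pdcd1, which encodes PD-1, a target of checkpoint antibodies, was at 15.20, 15.22 and 15.30 in CD103+CD69+, at 15.65, 15.66 and 15.52 in CD103-CD69+ and at 14.46 in both CD103-CD69- libraries. The difference of -0.37 (SE 0.07, adjusted p = 0.210) was small beside that of Tox, and both CD69+ groups lay above CD103-CD69-. Ctla4 differed by -0.13 with overlapping groups. Entpd1, the ectonucleotidase CD39, differed by -0.23 and also overlapped. The members apart and higher were Ptger4, a prostaglandin E receptor (0.37), and Irf4, a transcription factor downstream of the T-cell receptor (0.28). As a mean of centred values over the list, the CD103-CD69- libraries were lowest (-0.36 and -0.32), CD103+CD69+ next (-0.12 to -0.11) and CD103-CD69+ highest (0.25 to 0.44).

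**Figure D2:**
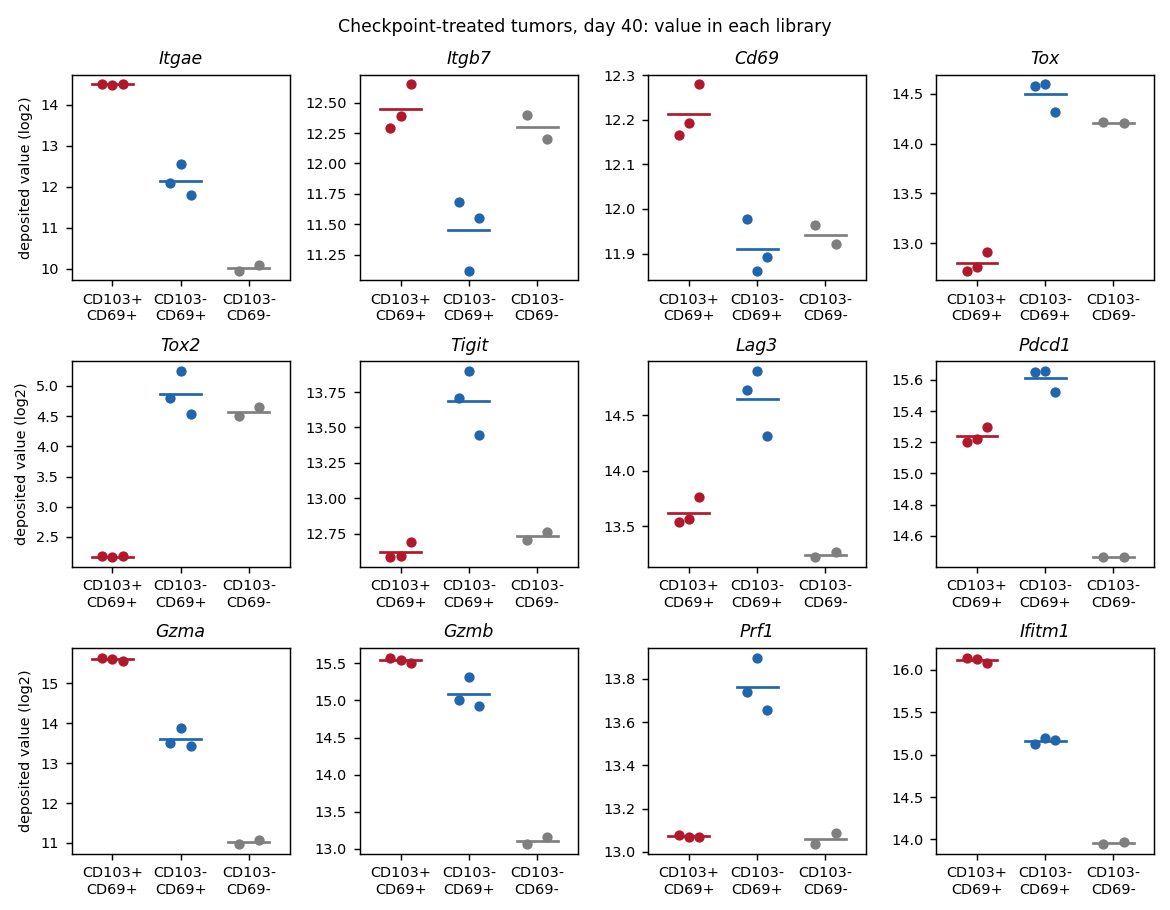
Deposited values (log2, y axis, scaled to each gene and not starting at 0) of 12 genes in each of the 8 checkpoint-treated libraries by sorted group (x axis), with points for libraries and lines for group means. Itgae, Gzma and Ifitm1 form 3 steps, Tox and Tox2 are low in CD103+CD69+ only, and Tigit, Lag3 and Prf1 are highest in CD103-CD69+.

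Cytotoxic genes split. Of 16 measured, 0 were called, the groups were apart for 6 higher (37.5%, against 16.9% of all genes) and 4 lower (25%, against 21.5%), and the median was 0.04. Besides Gzma, Gzmb, the main pro-apoptotic granzyme, was at 15.58, 15.54 and 15.50 against 15.01, 15.31 and 14.93 (difference 0.46, adjusted p = 0.287), and the CD103-CD69- libraries were at 13.06 and 13.16. Prf1, the pore-forming perforin, stood the other way round, at 13.08, 13.07 and 13.07 against 13.74, 13.90 and 13.65 (difference -0.69, SE 0.08, adjusted p = 0.109), with the CD103-CD69- libraries at 13.04 and 13.09. In CD103+CD69+ cells perforin thus lay at the level of the CD103-CD69- cells, while both granzymes lay above it. Gzmm, granzyme M, differed by -1.99 and Gzmc by 1.41, both at low values, and Gzmk by -0.29 with overlapping groups. Gzmc belongs to a cluster of near-identical granzyme genes, so its value is uncertain.

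Among 16 measured cytokines and chemokines, 0 were called and the median was -0.13. Ifng, interferon gamma, was at 14.35, 14.34 and 14.37 against 14.79, 14.98 and 14.64 (difference -0.45, adjusted p = 0.252), with groups apart. Ccl9, a chemokine also made by macrophages, was at 5.31, 5.25 and 5.10 against 3.12, 3.53 and 3.15 (difference 1.96, adjusted p = 0.153). Tnfsf11, which encodes RANKL, differed by 0.40 with groups apart, whereas Tnf (0.23), Ccl3 (-0.67), Ccl4 (-0.25) and Ccl5 (-0.12) overlapped. Of 17 NK receptor genes the groups were apart for 2 higher (11.8%, against 16.9%) and 3 lower (17.6%, against 21.5%); Klre1, a lectin-like receptor, differed by -1.16 (adjusted p = 0.146).

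Genes of circulating memory were lower on balance. Of 29 measured 0 were called, the ordinary count was 14 lower and 4 higher, the groups were apart for 15 lower (51.7%, against 21.5%) and 5 higher (17.2%, against 16.9%), and the median was -0.29. Lef1, a WNT-pathway transcription factor of unstimulated T cells, was at 6.14, 6.11 and 6.05 against 7.11, 7.26 and 7.13, with 9.11 and 9.16 in CD103-CD69- (difference -1.07, adjusted p = 0.138). Slamf6 (-0.98), Bach2 (-1.13), Eomes (-1.33) and S1pr1 (-0.65) were also apart and lower. Lef1, Slamf6 and S1pr1 formed steps in the reverse order of Gzma, with CD103-CD69+ between the other groups and closer to CD103+CD69+. Tcf7, which encodes TCF-1, was at 8.66, 8.67 and 8.63 against 8.95, 8.79 and 9.09, while the CD103-CD69- libraries were at 11.47 and 11.42, so most of its range lay between the CD69+ and the CD69- cells. Il7r, the interleukin 7 receptor, was among the 5 members apart and higher (difference 0.39), as was Zeb2, a transcription factor of effector cells (0.50).

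The tissue-resident list did not move as a block. Of 32 measured 0 were called, the groups were apart for 7 higher (21.9%) and 5 lower (15.6%), close to the shares over all genes, and the median was 0.08. Apart from Itgae the highest members were Gpr55, a lysophospholipid receptor (0.79), Cdh1, E-cadherin (0.66), and Ldlrad4, an inhibitor of TGF-beta signalling (0.54). Ldlrad4 was at 11.77, 11.77 and 11.75 against 11.21, 11.19 and 11.25, with both CD103-CD69- libraries at 10.68 (adjusted p = 0.0947). Cxcr6 (-0.19) and Prdm1, which encodes BLIMP-1 (-0.32), were apart and lower; Zfp683, which encodes HOBIT (0.28), Itga1 (0.15) and Runx3 (0.07) overlapped. Both CD69+ groups stood well above CD103-CD69- for this list: the mean centred value was 0.26 to 0.29 in CD103+CD69+, 0.10 to 0.13 in CD103-CD69+ and -0.58 to -0.57 in CD103-CD69-.

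For the TGF-beta pathway the groups were apart for 7 of 19 members higher (36.8%, against 16.9% of all genes) and 2 lower (10.5%, against 21.5%), with 0 called. The list median was 0.08, against -0.02 over all genes. As a mean of centred values over the list the 2 CD69+ groups overlapped, at 0.02 to 0.08 in CD103+CD69+ and -0.20 to 0.10 in CD103-CD69+. Among receptors, Tgfbr3, the betaglycan co-receptor, was at 12.18, 12.18 and 12.19 against 11.64, 11.62 and 11.65 (difference 0.55, SE 0.06, adjusted p = 0.0842). Tgfbr1 differed by 0.44 with groups apart and Tgfbr2 by 0.03 with groups overlapping. Among intracellular members, Smad3 (0.22) and the ubiquitin ligase Smurf2 (0.29) were apart and higher, as was the feedback inhibitor Pmepa1 (0.31), while Smad7 (0.07) overlapped. Itgb8, whose integrin activates latent TGF-beta, was at 5.26, 5.15 and 4.66 against 6.79, 6.74 and 7.63 (difference -2.03, adjusted p = 0.169), and Tgfb1, the ligand, differed by -0.01.

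Among 25 chemokine receptors and integrins, 0 were called and the groups were apart for 4 higher (16.0%, close to the 16.9% of all genes) and 11 lower (44.0%, against 21.5%). Itga4, the alpha4 integrin chain that pairs with beta1 or beta7, was at 16.11, 16.13 and 16.20 against 16.93, 16.77 and 16.90, with 17.69 and 17.64 in CD103-CD69- (difference -0.72, SE 0.08, adjusted p = 0.0849). It thus ran opposite to Itgae over the same 3 groups. Cxcr5, a B-cell follicle homing receptor, was at 0.03, 0.55 and 2.42 against 6.06, 4.86 and 3.60; the groups were apart but each was widely spread (difference -3.84, SE 1.00, adjusted p = 0.301). Of 12 costimulatory receptors 5 were apart and lower (41.7%, against 21.5%), with Tnfrsf4, which encodes OX40 (-0.97), Cd27 (-0.84) and Tnfrsf9 among them, and Cd226, the activating counterpart of TIGIT, was at 13.26, 13.26 and 13.24 against 12.78, 12.68 and 12.87 (difference 0.47, adjusted p = 0.157).

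Interferon-stimulated genes were higher as a group by small amounts. Of 26 measured 0 were called, but 25 had a difference above 0, the groups were apart for 21 higher (80.8%, against 16.9% of all genes) and 0 lower, the ordinary count was 19 higher and 0 lower, and the median was 0.22. Irf7, the transcription factor that amplifies type I interferon responses, was at 12.58, 12.59 and 12.63 against 12.26, 12.22 and 12.22 (difference 0.37, SE 0.06, adjusted p = 0.158). Oas3, which senses double-stranded RNA, was at 11.88, 11.87 and 11.87 against 11.53, 11.60 and 11.51 (difference 0.32, adjusted p = 0.210). Oas2 had the highest difference, 0.71, and Isg15 (0.22) and Bst2 (0.34) were apart and higher. The exception below 0 was Gbp3 (-0.10), with overlapping groups. Over all alternatives the list median stayed between 0.19 and 0.25.

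**Figure D3:**
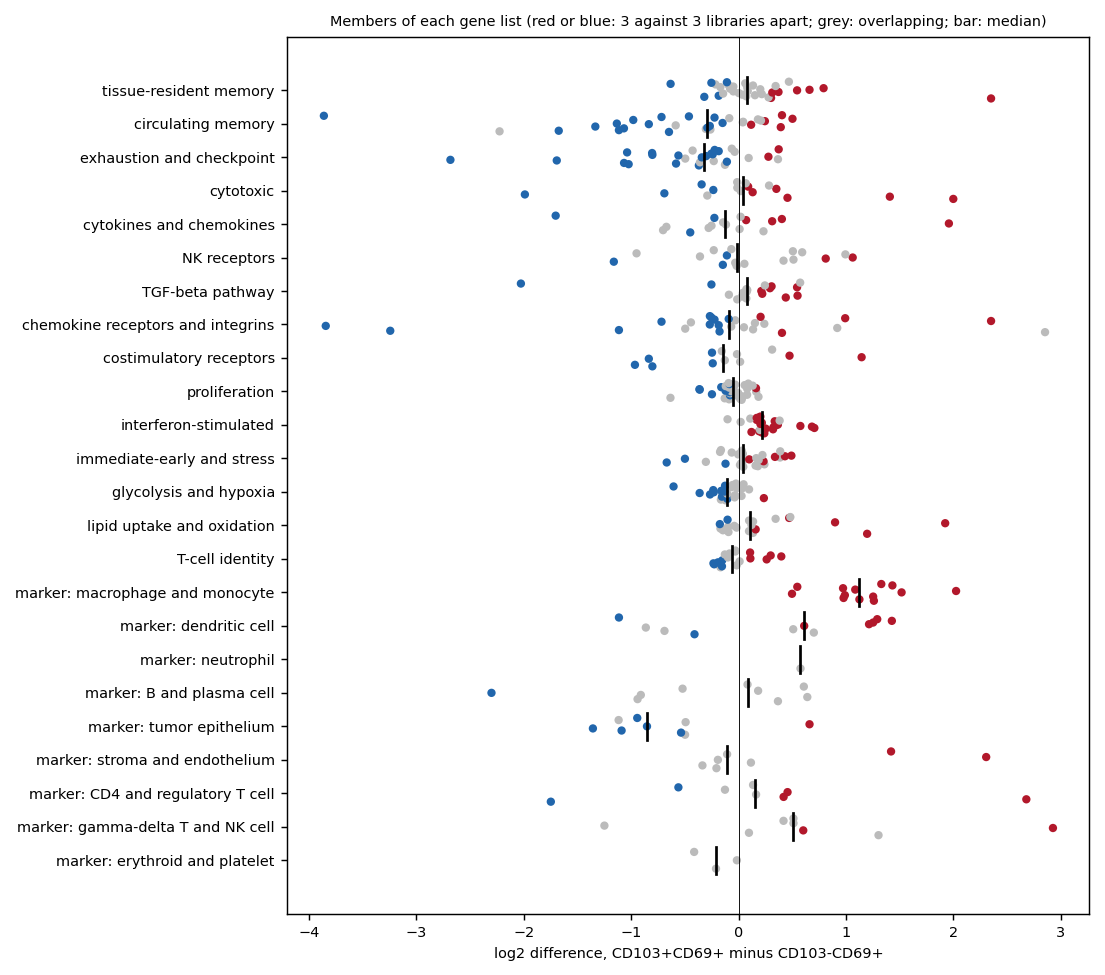
Log2 differences between CD103+CD69+ and CD103-CD69+ (x axis) of every measured member of the 24 gene lists (y axis), coloured where the 3 libraries of one group lie wholly apart from the other 3, with a bar at each list median. Interferon-stimulated and macrophage genes lie right of 0, and most exhaustion and circulating memory genes lie left of it.

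Other lists moved less. For proliferation, 34 genes, the groups were apart for 1 higher (2.94%, against 16.9% of all genes) and 8 lower (23.5%, close to the 21.5% of all genes) and the median was -0.06; Mki67 differed by 0.03. Among 28 immediate-early and stress genes the median was 0.04; Zfp36, which destabilizes cytokine mRNA, differed by 0.49 (adjusted p = 0.153) and Ier3 by -0.50. Of 24 glycolysis and hypoxia genes the groups were apart for 10 lower (41.7%, against 21.5%) and 1 higher (4.17%), with a median of -0.10 and Ldha, lactate dehydrogenase, at a difference of -0.24 (adjusted p = 0.315). Of 20 genes of lipid uptake and oxidation, 5 were apart and higher (25%, against 16.9%) and 2 lower (10.0%): Lpl, lipoprotein lipase, differed by 1.92 and the scavenger receptor Cd36 by 1.20, whereas the oxidation genes Cpt1a (0.10) and Acadm (-0.17) overlapped. Lpl and Cd36 are also macrophage genes. For 18 genes of T-cell identity the groups were apart for 5 higher and 5 lower (27.8% each, against 16.9% and 21.5% of all genes). Cd8a was at 15.36, 15.36 and 15.38 against 15.59, 15.75 and 15.46 (difference -0.23).

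Some markers of other cells moved with the groups. All 13 measured macrophage and monocyte markers (100%, against 16.9% of all genes) were apart and higher in CD103+CD69+, by 0.50 to 2.03. Their median was 1.13, 0 were called and the ordinary count was 13. Csf1r, the receptor that macrophages need for survival, was at 7.73, 7.73 and 7.65 against 6.18, 5.93 and 6.44, with 5.18 and 5.10 in CD103-CD69- (difference 1.52, adjusted p = 0.141). Lyz2, lysozyme, differed by 1.26. The summed level of the list, on the log2 scale, was 12.51 to 12.73 in CD103+CD69+, 11.85 to 12.16 in CD103-CD69+ and 11.61 in both CD103-CD69- libraries, in the same order as Gzma, Ifitm1 and Itgae. This sum and those of other lists rest on reading the values as log2. Of 11 dendritic cell markers the groups were apart for 5 higher (45.5%, against 16.9% of all genes) and 2 lower (18.2%, against 21.5%). The MHC class II genes H2-Aa, H2-Ab1 and H2-Eb1 and the invariant chain Cd74 were apart and higher by 1.21 to 1.43. Ccr7 (-1.11) and Xcr1 (-0.41) were apart and lower. The part of these cells in the differences above, including those of Ccl9, Cmklr1, Hpgds, Lpl, Cd36 and the interferon-stimulated genes, was not tested, and more such cells cannot be told apart from more RNA per cell in sorted bulk samples.

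Foxp3, the factor of regulatory T cells, was at 6.55, 6.43 and 6.20 against 3.45, 4.31 and 3.38, with 2.90 and 3.19 in CD103-CD69- (difference 2.68, SE 0.38, adjusted p = 0.138). Cd4 ran the other way, at 3.87, 4.10 and 4.76 against 6.55, 5.31 and 6.11 (difference -1.75, adjusted p = 0.286). Ikzf2, which encodes HELIOS, was apart and lower (-0.56) and Il2ra apart and higher (0.42), so the 8 CD4 and regulatory T-cell markers did not move together. Of these, 3 were apart and higher (37.5%, against 16.9% of all genes) and 2 lower (25%, against 21.5%). Of 9 epithelial markers the groups were apart for 5 lower (55.6%, against 21.5%), Epcam among them (-0.85), and 1 higher (11.1%, against 16.9%), Cdh1 (0.66). Cdh1 dominates the summed level of that list, which was 14.99 to 15.16 in CD103+CD69+ and 14.32 to 14.61 in CD103-CD69+, while its median difference was -0.85: sum and median differ in sign. Of 7 stromal and endothelial markers 2 were apart and higher (28.6%, against 16.9%), Cdh5 (1.42) and Fn1 (2.31), but the list median was -0.11. Of 8 gamma-delta T and NK markers 2 were apart and higher (25%, against 16.9%). Of 9 B-cell markers 1, Pax5, was apart and lower (11.1%, against 21.5%). The 3 erythroid markers and Csf3r, the neutrophil marker measured, overlapped.

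**Figure D4:**
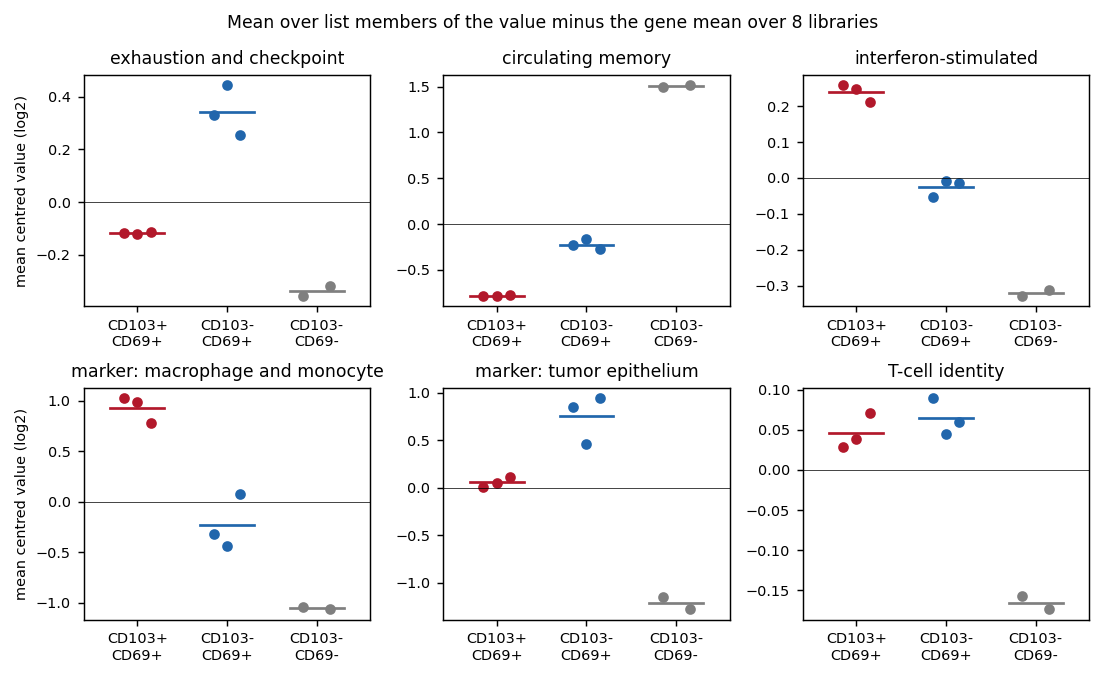
Mean over list members of the value minus the gene's mean over the 8 libraries (y axis, log2), for 6 gene lists in each checkpoint-treated library by sorted group (x axis), with lines at group means. Exhaustion genes were highest in CD103-CD69+ (0.25 to 0.44), circulating memory genes in CD103-CD69-, and interferon-stimulated and macrophage genes in CD103+CD69+.

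The same contrast in untreated tumors came from 3, 4, 3 and 3 CD103+CD69+ and 3, 3, 2 and 3 CD103-CD69+ libraries at weeks 1, 2, 4 and 6. Treatment, time point and table cannot be told apart between the 2 tables, so the values are set side by side and no difference between them was tested. Levels also differed between the tables. At week 6 the CD103+CD69+ and CD103-CD69+ means of Gzma were -3.70 and -3.29, against 15.60 and 13.60 under treatment. For Atp2b2 they were 27.62 and 28.55, against 3.15 and 8.53. Sizes may therefore not be comparable between the tables, and reading the untreated values as log2 is uncertain, as it is for the treated ones. Itgae differed by 0.81, 1.38, 0.83 and 1.42 over the 4 weeks, against 2.35 under treatment. Its groups were apart at weeks 2 and 6 and overlapped at weeks 1 and 4. Tox differed by -0.37, -0.22, -1.10 and -0.80, against -1.69, and the groups were apart at weeks 4 and 6. Atp2b2 differed by -0.47, -0.10, -1.34 and -0.93, against -5.38, and was likewise apart at weeks 4 and 6. These 3 genes kept 1 sign in all 5 settings.

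Gzma did not keep its sign. Its untreated differences were -0.93, 0.23, 1.35 and -0.40, against 2.00 under treatment, with CD103+CD69+ wholly lower at weeks 1 and 6 and wholly higher at week 4. Ifitm1 differed by -0.56, 0.36, 0.14 and 0.12 with overlapping groups at each week, against 0.95. Prf1 had differences below 0 at all 4 weeks (-0.68, -0.98, -0.27 and -1.70), with overlapping groups at weeks 2 and 4. Itga4 (-0.81, -0.34, -0.51 and -0.51) overlapped at week 4, and Ifng (-2.46, -0.41, -0.48 and -0.83) at week 2. Foxp3 differed by -0.89, 1.90, 1.07 and 1.16.

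Of the lists, the 24 interferon-stimulated genes present in both tables all had a difference of the same sign at week 6 as under treatment, and 19 were apart in the same direction in both. Their untreated medians were -0.64, 0.36, 0.17 and 0.41 at the 4 weeks. For exhaustion and checkpoint genes the medians were -0.91, -0.21, -0.21 and -0.42 against -0.32, with 12 of 28 apart in the same direction at week 6 and under treatment and 3 in opposite ones. Circulating memory genes did not keep their direction: the 25 genes present in both tables had medians of -0.23, -0.04, 0.39 and 0.14 against -0.29, with 8 apart in the same direction at week 6 and under treatment and 3 in opposite ones. Lef1 differed by 0.26, -0.11, 0.70 and 0.17, apart and higher at week 4, against -1.07. The macrophage markers present in both tables, 10 genes, had medians of 0.35, 0.57, 0.27 and 0.06 against 1.19. Over all 10187 shared genes 56.4% had the same sign at week 6 as under treatment, 977 were apart in the same direction and 445 in opposite ones.

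**Figure D5:**
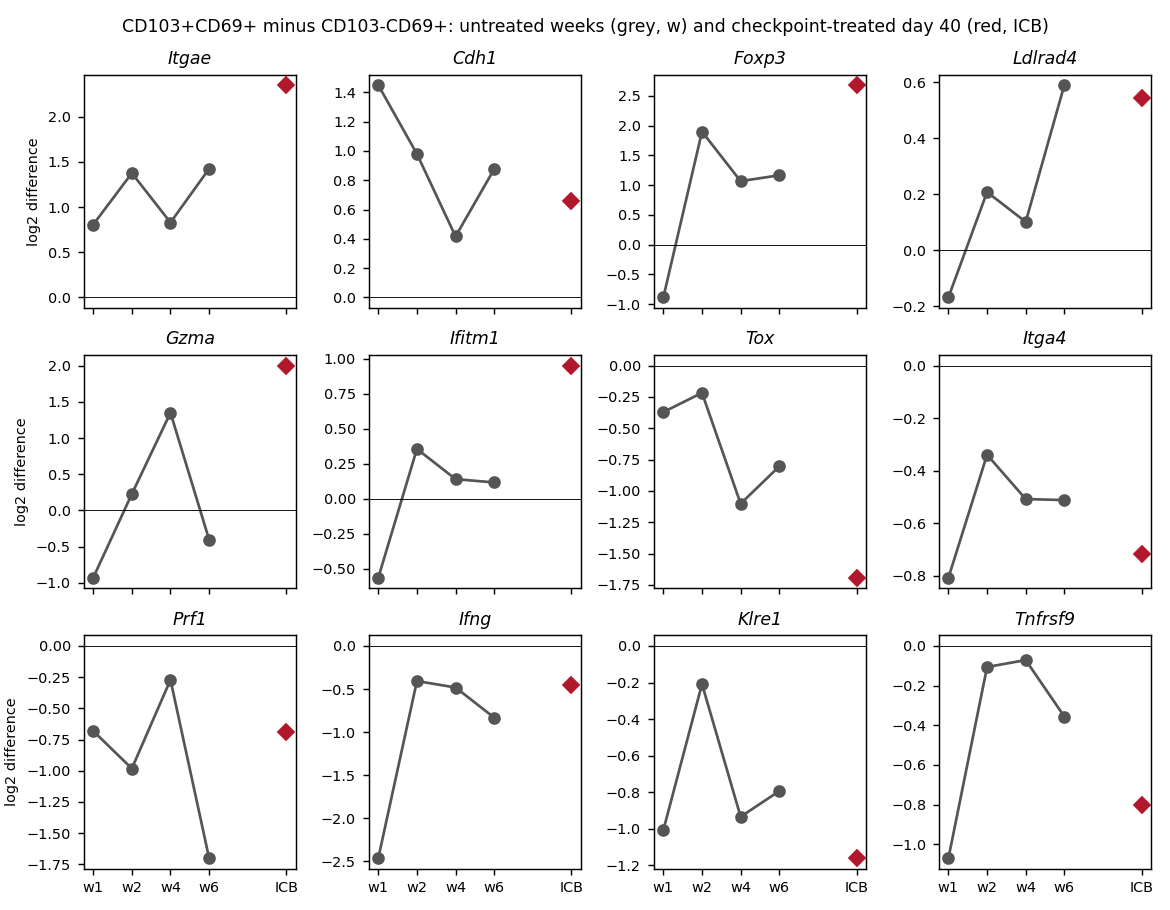
Log2 difference between CD103+CD69+ and CD103-CD69+ (y axis, scaled to each gene) for 12 genes in untreated tumors at weeks 1, 2, 4 and 6 (grey, joined) and in checkpoint-treated tumors on day 40 (red, ICB), from 2 separately normalized tables. Itgae and Cdh1 stay above 0 and Tox, Itga4, Prf1, Ifng, Klre1 and Tnfrsf9 below 0 in all 5 settings, while Gzma changes sign between weeks.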

How the data were processed

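CD8+ T-cell subsets sorted from AT3-OVA tumors were profiled by QuantSeq 3' FWD from 10 ng of RNA, per the labels' protocols. Per the submitters' processing notes, HISAT2 and HTSeq were used with mm10 (no versions given). The authors deposited normalized values, taken here as log2 because they include negative numbers over a wide span; the normalization is not given in the sources used here. Counts were not analysed here, so depth per library and detection limits are unknown.

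limma 3.58.1 in R 4.3.3 (trend and robust options, statmod 1.5.0) fitted the means of 3 groups over 8 libraries without a filter, with Benjamini-Hochberg adjustment over 13458 genes. Residual degrees of freedom were multiplied by 0.4, since residuals had a rank of 2 where 5 is possible, and variances divided by it; rescaled tables kept that ratio, a choice made after seeing the data. p-values measure the spread between these samples, which may be technical.

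Named genes were Itgae, Cd69, Tox, Gzma, the called genes, those with the smallest p up to 8 in each direction (predicted genes and genes with overlapping groups left out) and 2 of each list; others were chosen after their values were seen. Members and lists were chosen with earlier results of these data known. Annotation was GENCODE (GRCm38). Some genes are not reported here.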

Additional observations from a re-analysis of the deposited data

Results flagged for a closer look

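Treated tumors were set beside untreated tumors at week 6. For 5 of the 58 genes named by rule, the CD103+CD69+ and CD103-CD69+ libraries lay wholly apart in both settings but in opposite directions. Not all 58 genes are in both tables, and the 5 were picked for being opposite. Over all 10187 shared genes, 445 were apart in opposite directions and 977 in the same direction. The sign was the same in both settings for 56.4% of the shared genes. The difference between the settings was not tested, and treatment, time point and table cannot be told apart. Levels differed between the 2 tables, so the sizes may not be comparable. Gzma, granzyme A, differed by 2.00 under treatment and by -0.40 untreated. Mcm6, a replication helicase subunit, differed by -0.25 and 0.23, and Hmgb2, a chromatin protein of cycling cells, by -0.12 and 0.38. Ldha, lactate dehydrogenase, differed by -0.24 and 0.092. Lat, the adaptor downstream of the T-cell receptor, differed by 0.26 and -0.23.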

How the results depend on the processing

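The count of 5 called genes became 3250 with ordinary degrees of freedom, 8 when only the 2 groups compared were fitted, 7 after quantile normalization, 8 after median rescaling, 13 without the genes in the lowest 25% of mean values and 5 with values above 0 in at least 3 libraries. Without the trend and robust options limma called 1 gene, none of the 5: Mttp, named after its values were seen, at -3.50, -3.50 and -3.49 against 1.13, 1.12 and 1.12. The table has lost part of its spread, so such near-equal values within a group do not measure agreement between independent samples. Leaving out 1 library gave 0 to 31 calls. With the replicate number as a block the count was 39 on the 6 libraries compared and 38 on all 8; the 5 called genes were among them. Deviations of same-numbered CD69+ libraries from their group means correlated at -0.995, 0.361 and -0.61. With residuals of rank 2 these correlations cannot show whether the numbers pair the samples, and the labels do not say. The library codes of the same-numbered CD69+ libraries are adjacent (80 and 81, 83 and 84, 86 and 87). Those of CD103-CD69- replicates 1 and 2 are 85 and 88, so the block on all 8 libraries may not match them. Among named genes the sole change of sign was Alas2, a gene of heme synthesis with overlapping groups, at -0.41 in the reported fit, 0.0035 without CD103-CD69+ replicate 1 (adjusted p = 0.999) and -0.91 without CD103+CD69+ replicate 3. The medians of 5 lists changed sign under an alternative: cytokines and chemokines, NK receptors, and the B-cell, stromal and erythroid markers. The cause of these changes was not tested. Quantile normalization moved the median of all genes from -0.019 to 0.014.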

Other observations

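T-cell receptor variable segments lay apart and lower about as often as all genes. Of 37 measured alpha-chain segments the groups were apart for 8 lower (21.6%, against 21.5% of all genes) and 2 higher (5.41%, against 16.9%) in CD103+CD69+, with a median difference of -0.39, and of 21 beta-chain segments for 5 lower (23.8%) and 2 higher (9.52%), with a median of -0.33. Besides Trav10d, Trav14-3 was at 6.30, 6.25 and 6.16 against 7.86, 8.30 and 7.77 (limma adjusted p = 0.114), with 5.94 and 6.08 in CD103-CD69-, so CD103-CD69+ was the group apart. Trav8-2 ran the other way, at 1.26, 1.03 and 0.40 against -1.45, -0.26 and -1.05 (adjusted p = 0.343). Trbv19 differed by 0.46 with groups apart (adjusted p = 0.461). Near-identical segments could divide reads, so single values are uncertain. Trav8d-1 and Trbv17 each lay at the 99.9 percentile of mean values over all genes. Whether 3' tags report the use of a segment was not tested, so these values are not read as receptor use.

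Where the 2 CD69+ groups were apart, the CD103-CD69- mean lay on either side: of 2278 genes higher in CD103+CD69+ it lay below both groups for 1142 and above both for 548, and of 2895 lower it lay above both for 1123 and below both for 757.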
